A study of Mus musculus with 6 samples.

Results

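PU.1, encoded by Spi1, and 7 transcription factor genes that act with it in myeloid cells (Irf8, Irf5, Cebpa, Cebpb, Cebpd, Runx1 and Maf) were followed in mouse testis cells. Every probe set annotated to 1 of these 8 symbols was taken, which gave 16 of the 22626 probe sets tested, and 0 of them were shared with another gene. The data are 6 Affymetrix Mouse430A_2 arrays, chips that read each transcript through 1 or more sets of short oligonucleotides, called probe sets. The label of 3 arrays is spermatogonial stem cells (the self-renewing germ cells of the testis) and that of the other 3 is total testicular cells. All 6 samples came from Stra8-CD4HAglo transgenic mice, in which a truncated promoter of the germ cell gene Stra8 drives a human CD4 surface marker. Stem cell samples were the marker-positive cells taken from pooled testes with magnetic beads. Titles and source names differ for the other group: the sources name cells negative for the marker, so it may lack the sorted cells rather than hold all testis cells. No age or strain is given in the labels used here. Nothing in them says that the 3 arrays of a group came from separate preparations, so p-values measure the spread between these samples, which may be technical.

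PU.1 is a DNA-binding protein of the ETS family that macrophages, neutrophils and B cells need to form. It binds many myeloid enhancers together with interferon regulatory factors such as IRF8 and with C/EBP proteins, while RUNX1 helps to switch on its gene. Macrophages also live in the normal testis, between the tubules and beside the steroid-producing Leydig cells.

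The deposited values are log2 summaries, so a difference of 1 is a doubling. Median values of the arrays lay between 3.25 and 3.44. Background was set at 2.37, the level that 95% of the values of 27 bacterial control probe sets stayed under, and 71.3% to 75.0% of probe sets per array lay above it. Stem cell array 1 stood apart on the first principal component (score 78.7, against 18.8 and 15.3 for arrays 2 and 3). Differences without it are given for Spi1, Irf8, Cebpa, Cebpb and Cebpd (1423233_at), but not for most other genes. Over all probe sets 316 rose and 34 fell in the stem cell arrays (limma, adjusted p under 0.05), a split of 844 and 487 when arrays were centred on hybridization controls. In that fit limma pooled the variances fully, so each was set by the level of the probe set alone, unlike in the main fit. The mean of those controls was 8.96 on stem cell array 1 and 8.37 to 8.51 on the other arrays. Of 18 measured markers of undifferentiated spermatogonia, 1 rose and 0 fell. That gene was Itgb1, an integrin chain (log2 difference 1.58, adjusted p = 0.047, while its 6 probe sets spread from −0.03 to 1.88), and the list's median difference was 0.01. The Itgb1 call ended with quantile normalization (adjusted p = 0.0566), without an intensity trend (0.0621) and without total testicular array 1, 2 or 3 (0.215, 0.131 and 0.231). Of 32 macrophage markers 23 rose and 0 fell, beside 1.63% and 0.137% of all 12393 named genes. Of the 18 spermatogonial markers, 3 were higher and 1 lower at an unadjusted p under 0.05 by limma (11.8% and 13.1% of all named genes). Groups were separate for 4 with stem cells higher and 2 with them lower (13.8% and 19.2%). For 16 of the 18 the total testicular mean lay less than 2 log2 units above background or below it. At these low levels, markers of the labelled cell type were not raised as a list over the other group. The stem cell arrays are called so by their label.

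Transcripts of 5 of the 8 factors, Spi1, Irf8, Cebpa, Cebpb and Cebpd, were higher on every stem cell array than on any total testicular array, by up to 3.54-fold. Runx1, Irf5 and Maf were not. Cebpd was higher throughout on probe set 1423233_at, while its other probe set, 1456605_at, overlapped between the groups. Of the 16 probe sets, 0 passed the threshold over all probe sets by limma or by an ordinary unmoderated model, while 7 had an unadjusted p under 0.05 by limma, all with a higher stem cell mean. For 7 of the 16 probe sets the groups did not overlap, with the stem cell arrays higher, as against 13.5% of all probe sets. For 0 the stem cell arrays were lower throughout, as against 17.5%. An unadjusted p under 0.05 was met by 11.4% of all probe sets with a higher stem cell mean and by 12.1% with a lower one, and an adjusted p under 0.05 by 1.4% and 0.15%. Counted by gene, each read by its probe set of highest mean, 5 of the 8 factors had separate groups with stem cells higher, as against 13.8% of 12393 genes, and 0 were lower throughout, as against 19.2%. The same 5 had an unadjusted p under 0.05, as against 11.8% of genes higher and 13.1% lower. The median difference of the 16 was 0.29, beside −0.03 over all probe sets. These samples are bulk RNA, in which more cells of a type and more RNA per cell cannot be told apart.

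**Figure D1:**
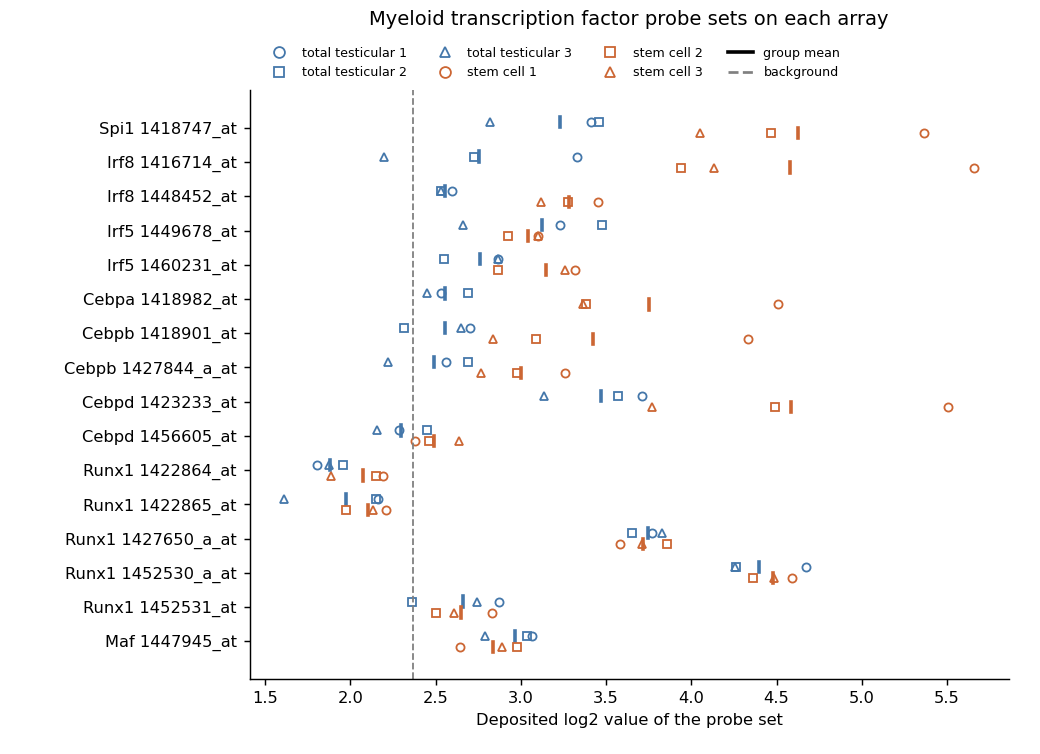
Deposited log2 value (x axis) of each of the 16 probe sets (rows) on the 3 total testicular (blue) and 3 stem cell (orange) arrays, with symbols for the replicates, bars for the group means and a dashed line at the background of 2.37. The groups separate for 7 probe sets of Spi1, Irf8, Cebpa, Cebpb and Cebpd and overlap for the other 9.

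Promoter sequences are shown for Irf8, Cebpa and Cebpb, the factors among these 5 with a RefSeq entry at the gene's annotated start, because they were high on the same arrays as Spi1. Spi1, Cebpd and Maf have no entry in the table, and the 8 symbols matched 7 entries of 5 genes. Each line gives the 250 bases before the start on the plus strand, 5′ to 3′, in build GRCm38.p6, at chr8:120736108-120736357 for Irf8, chr7:35119043-35119292 for Cebpa and chr2:167688665-167688914 for Cebpb. Capitals mark matches to the motifs searched.
Irf8: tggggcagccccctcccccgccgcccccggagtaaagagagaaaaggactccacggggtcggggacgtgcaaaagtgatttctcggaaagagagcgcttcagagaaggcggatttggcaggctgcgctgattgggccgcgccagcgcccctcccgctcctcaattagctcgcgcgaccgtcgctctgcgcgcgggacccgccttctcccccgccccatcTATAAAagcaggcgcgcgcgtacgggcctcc
Cebpa: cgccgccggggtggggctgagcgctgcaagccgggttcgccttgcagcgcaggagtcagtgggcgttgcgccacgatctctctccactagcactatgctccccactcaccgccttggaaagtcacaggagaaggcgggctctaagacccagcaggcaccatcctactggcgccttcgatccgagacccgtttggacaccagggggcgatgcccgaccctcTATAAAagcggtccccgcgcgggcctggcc
Cebpb: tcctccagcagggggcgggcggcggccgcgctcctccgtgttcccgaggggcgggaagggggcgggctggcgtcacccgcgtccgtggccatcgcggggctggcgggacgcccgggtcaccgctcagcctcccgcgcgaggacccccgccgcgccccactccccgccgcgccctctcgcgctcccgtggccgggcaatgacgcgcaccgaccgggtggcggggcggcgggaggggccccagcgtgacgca

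Both strands of these windows were searched for GAGGAA (the core of a PU.1 site), TTGCNNAA (C/EBP), GAAA repeated after any 2 bases (interferon regulatory factors), GGAA followed after any 2 bases by GAAA (a joint ETS and IRF site), TGTGGT (RUNX), TGCTGA (MAF) and TATAAA (the TATA box), where overlapping matches were all kept. TATAAA was added after the sequences were seen. It was found in the Irf8 window at position −31 from the transcription start and in the Cebpa window at position −30, both on the plus strand. Of the 32851 promoter windows of the same length in the table, 12.4% hold it. The 6 factor motifs were not found in any of these 3 windows, where they occur in 23.3% (PU.1), 9.56% (C/EBP), 2.98% (interferon regulatory factors), 2.3% (joint), 14.0% (RUNX) and 16.1% (MAF) of all windows. Among the other 4 windows of these genes, the one at the second Irf8 start held a MAF match (TCAGCA, the reverse strand of TGCTGA, at position −157) and the one at the second Runx1 start a PU.1 match (TTCCTC, the reverse strand of GAGGAA, at position −46). Such letters show no binding, and their absence holds for the window searched alone.

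Spi1, the PU.1 gene (chromosome 2, 91082374 to 91115759, GRCm38.p6), is read by a single probe set, 1418747_at. On stem cell arrays 1, 2 and 3 its log2 level was 5.37, 4.47 and 4.05, and on total testicular arrays 1, 2 and 3 it was 3.41, 3.46 and 2.82. Values of both groups are given in this array order throughout. The lowest stem cell value lay above the highest of the others, and all 6 lay above background. The difference was 1.40 ± 0.33 (SE, 3 arrays per group), a 2.64-fold higher level with a 95% interval from 0.65 to 2.14 on the log2 scale, and it did not pass (limma adjusted p = 0.0684). Among all probe sets it ranked at the 97.8th percentile of differences. Without stem cell array 1 it was 1.03 (adjusted p = 0.0801). It passed without stem cell array 3 (1.69, adjusted p = 0.0142) but not without total testicular array 1, 2 or 3 (limma adjusted p = 0.237, 0.153 and 0.274). Over all probe sets, 316 rose as reported, and 526, 679 and 1365 rose without stem cell array 1, 2 or 3. For Spi1 the adjusted p ran from 0.00117 to 0.314 over its 17 alternatives. The lowest came with hybridization control centring and its fully pooled variances.

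Irf8, an interferon regulatory factor that pairs with PU.1 and directs monocyte and dendritic cell fate (chromosome 8, 120736358 to 120756694), had the largest mean difference. Probe set 1416714_at read 5.66, 3.94 and 4.13 for stem cells and 3.33, 2.73 and 2.20 for total testicular cells. Every stem cell value was higher than every other value, and total testicular array 3 lay under background. The difference was 1.83 ± 0.45 (SE, 3 arrays per group; limma adjusted p = 0.0749), or 3.54-fold. Its second probe set, 1448452_at, read 3.45, 3.28 and 3.12 against 2.60, 2.53 and 2.53, close to background in the second group but tight in both. That gave a smaller difference, 0.73 ± 0.15 (SE, 3 arrays per group), at an adjusted p = 0.0513 (limma), the lowest of the 16. Both probe sets missed the threshold without stem cell array 1 (1.28 and 0.65, adjusted p = 0.0777 for each). Both passed without stem cell array 2 (adjusted p = 0.0475 and 0.0462) and without stem cell array 3 (0.0361 and 0.0176). Neither passed without total testicular array 1, 2 or 3 (limma adjusted p from 0.159 to 0.283). Over their alternatives the adjusted p ran from 6.75e-07 to 0.314 for 1416714_at and from 0.0176 to 0.313 for 1448452_at. The value of 6.75e-07 came with hybridization control centring and its fully pooled variances. The next lowest for 1416714_at was 0.0026, with the replicate block (limma).

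Irf5, a related factor that drives inflammatory cytokine genes in macrophages (chromosome 6, 29526130 to 29541869), showed no such separation. Probe set 1460231_at read 3.32, 2.86 and 3.26 for stem cells and 2.86, 2.55 and 2.87 for the other group (difference 0.39, 95% interval −0.02 to 0.79, limma adjusted p = 0.233). Stem cell array 2 fell within the range of the other group. Probe set 1449678_at read 3.10, 2.93 and 3.10 against 3.23, 3.48 and 2.66, and its difference was −0.08 (95% interval −0.57 to 0.41, adjusted p = 0.858). For 1460231_at the interval includes the difference of 0.73 seen at Irf8 probe set 1448452_at, and whether Irf5 and Irf8 differ in response was not tested.

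Of the C/EBP genes, Cebpa encodes the leucine zipper factor that commits progenitors to the myeloid lineage (chromosome 7, 35119293 to 35121928). Its probe set 1418982_at read 4.51, 3.38 and 3.37 for stem cells and 2.53, 2.69 and 2.45 for total testicular cells. The groups lay apart, and the second group was narrow and just above background. The difference was 1.19 ± 0.29 (SE, 3 arrays per group; limma adjusted p = 0.0747), or 2.29-fold. Without stem cell array 1, the highest of the 3, the difference was 0.82 and passed (adjusted p = 0.0386), with the remaining stem cell values 3.38 and 3.37. It passed as well without stem cell array 2 (1.38, adjusted p = 0.0492) or array 3 (1.39, adjusted p = 0.0262). It did not pass without total testicular array 1, 2 or 3 (limma adjusted p = 0.273, 0.166 and 0.273). Its adjusted p ran from 0.00539 to 0.314 over the alternatives, the lowest with hybridization control centring and its fully pooled variances.

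Cebpb, the family member induced by inflammatory signals and needed in activated macrophages (chromosome 2, 167688915 to 167690432), was higher on both of its probe sets. Probe set 1418901_at read 4.33, 3.09 and 2.84 for stem cells against 2.70, 2.32 and 2.65. Stem cell arrays 2 and 3 lay little above the other group. The difference was 0.86 ± 0.34 (SE, 3 arrays per group; limma adjusted p = 0.176), and without stem cell array 1 it was 0.41 (adjusted p = 0.276). Probe set 1427844_a_at read 3.26, 2.97 and 2.77 against 2.56, 2.69 and 2.22, a difference of 0.51 (adjusted p = 0.15). Stem cell array 1 was again the highest, and without it the difference was 0.38 (limma adjusted p = 0.315). Total testicular array 3 lay under background. Over the alternatives the adjusted p ran from 0.0226 to 0.479 for 1418901_at and from 0.0874 to 0.524 for 1427844_a_at.

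Cebpd, whose product acts with C/EBP beta in the acute response of macrophages (chromosome 16, 15887286 to 15889545), differed between its probe sets. Probe set 1423233_at read 5.50, 4.49 and 3.77 for stem cells and 3.71, 3.57 and 3.14 for the other group. Stem cell array 3 was only just above total testicular array 1. The difference was 1.11 ± 0.39 (SE, 3 arrays per group; limma adjusted p = 0.138), or 2.17-fold, and 0.66 without stem cell array 1 (adjusted p = 0.237). It passed without stem cell array 3 (1.52, adjusted p = 0.0228) but not without total testicular array 1, 2 or 3 (limma adjusted p = 0.320, 0.267 and 0.376). Over its alternatives the adjusted p ran from 0.0228 to 0.376. Probe set 1456605_at read 2.38, 2.46 and 2.64 against 2.28, 2.45 and 2.15. These values straddle background and overlap (difference 0.20, 95% interval −0.11 to 0.50, adjusted p = 0.403).

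Runx1, the core binding factor subunit that acts upstream of PU.1 in blood formation (chromosome 16, 92601466 to 92826074), has 5 probe sets, and the groups overlapped on all 5. The brightest, 1452530_a_at, read 4.59, 4.36 and 4.48 for stem cells and 4.67, 4.26 and 4.26 for total testicular cells (difference 0.08, 95% interval −0.35 to 0.51, limma adjusted p = 0.834). Probe set 1427650_a_at read 3.58, 3.86 and 3.71 against 3.77, 3.65 and 3.83 (−0.03, 95% interval −0.41 to 0.35, adjusted p = 0.935). On these 2 probe sets, both above background on all 6 arrays, the intervals leave out a doubling. Their sign turned under an alternative (1452530_a_at to −0.03 with median centring), so no direction is given. Probe set 1452531_at differed by −0.01 (adjusted p = 0.975). The remaining probe sets, 1422864_at and 1422865_at, lay under background on all 6 arrays, at 1.61 to 2.21, and a change there could be missed.

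Maf, a large leucine zipper factor of mature macrophages (chromosome 8, 115703253 to 115706894), is read by 1 probe set, 1447945_at. It read 2.64, 2.98 and 2.89 for stem cells and 3.07, 3.03 and 2.79 for total testicular cells, which overlap. All 6 lay above background by less than 1 log2 unit. The difference was −0.13 (95% interval −0.49 to 0.24, limma adjusted p = 0.673). With the fluidics module as a block it was 0.19, which rests on stem cell array 2 and total testicular array 3 alone.

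**Figure D2:**
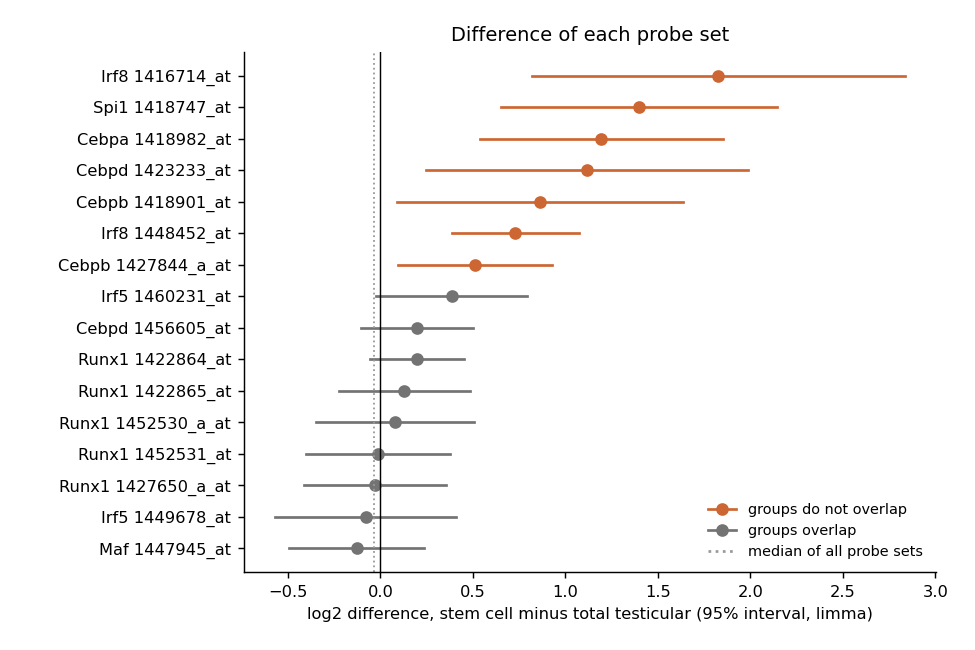
Log2 difference (x axis, stem cell minus total testicular, with the 95% interval from limma) of each of the 16 probe sets (rows), in orange where the groups do not overlap and in grey where they do. The dotted line is the median of all probe sets, −0.03; the largest difference is 1.83 for Irf8 probe set 1416714_at and the lowest −0.13 for Maf.

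Signal limits these comparisons. For 15 of the 16 probe sets the total testicular mean lay less than 2 log2 units above background or below it, and 9 of the 16 were above background on all 6 arrays. Different probe sets of 1 gene need not read the same transcripts, and levels of different probe sets are not compared here. In order of difference the higher factors were Irf8, Spi1, Cebpa, Cebpd and Cebpb, by the larger of a gene's values, and the 95% intervals of neighbours in that order overlap.

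The stem cell arrays were uneven. Stem cell array 1 was the highest for all 7 probe sets with separate groups, and array 3 the lowest stem cell array for 6 of them, the exception being Irf8 probe set 1416714_at, where array 2 was. From the total testicular mean, Spi1 differed by 2.14, 1.24 and 0.82 on stem cell arrays 1, 2 and 3, Cebpa by 1.95, 0.82 and 0.81, and Cebpd (1423233_at) by 2.03, 1.02 and 0.30. Irf8 (1416714_at) differed by 2.91, 1.19 and 1.38. Beside them, the median of the macrophage markers differed by 4.45, 2.81 and 3.04 and that of 31 measured PU.1 target genes by 2.31, 1.33 and 0.75. The macrophage median was thus higher on array 3 than on array 2, whereas 6 of the 7 probe sets were lower there. The mean log2 level of the same 32 markers had the other order, 6.37 on array 2 and 6.22 on array 3. The order of these 2 arrays for the macrophage markers therefore depends on the summary. The median of 8 measured Leydig cell genes differed by 2.72, 1.48 and 0.30.

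**Figure D3:**
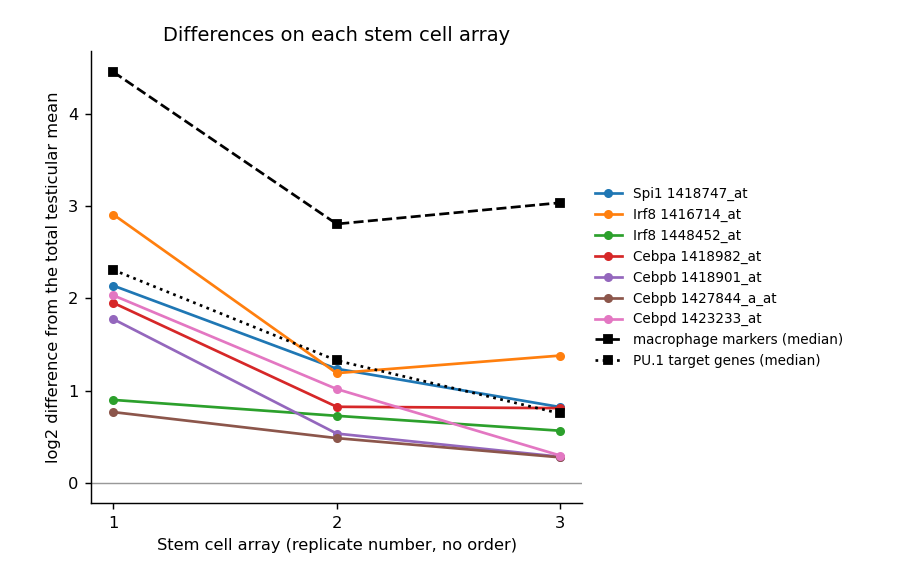
Log2 difference from the total testicular mean (y axis) on each stem cell array (x axis) for the 7 probe sets with separate groups (coloured lines), with the medians of the macrophage markers (dashed) and PU.1 target genes (dotted). Every line is highest at array 1, where Spi1 stands at 2.14 and the macrophage median at 4.45; replicate numbers have no order.

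By the hybridization dates and times in the deposited array records, the arrays fall into 3 groups, called fluidics rounds here. Round 1 held stem cell array 1 with total testicular arrays 1 and 3, round 3 held array 2 of each group, and stem cell array 3 ran alone. Spi1 differed by 2.25 within round 1 and by 1.01 within round 3. The same differences were 2.90 and 1.21 for Irf8 (1416714_at), 2.02 and 0.69 for Cebpa, 1.65 and 0.77 for Cebpb (1418901_at) and 2.08 and 0.92 for Cebpd (1423233_at). With the round as a block, a fit in which stem cell array 3 takes no part, 6 of the 16 probe sets passed. Among them were Spi1 (1.72, limma adjusted p = 0.0261) and Cebpb (1418901_at, 1.28, adjusted p = 0.0226). In that fit 1200 of all 22626 probe sets rose and 84 fell, as against 316 and 34 in the main fit. Within fluidics module 2, which held stem cell array 2 and total testicular array 3, Spi1 differed by 1.65 and Cebpa by 0.93.

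Relatives from 4 of the factors' families were examined, and ETS relatives of PU.1 were not among them. Of 17 measured genes of the C/EBP, IRF, RUNX and MAF families and their cofactors, 0 passed by limma in either direction (3 higher and 2 lower at an unadjusted p under 0.05, 0 by the unmoderated model), beside 1.63% of all 12393 named genes higher and 0.137% lower. Their median difference was 0.06, against −0.05 over all genes. Cbfb, the subunit that stabilises RUNX proteins on DNA, differed by 0.45 (adjusted p = 0.269), and Irf4, the lymphoid partner of PU.1, by 0.06 at a level under background in both groups. Cebpe was not analysed here.

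Among 51 other measured regulators of myeloid cells, 2 rose and 1 fell, beside 1.63% and 0.137% of all named genes. Their median difference was 0.15. Lmo2, a bridging protein of blood cell transcription complexes, read 6.0, 4.37 and 4.60 for stem cells against 2.61, 2.66 and 3.24 (difference 2.15 ± 0.39 SE, 3 arrays per group, limma adjusted p = 0.0405). Lyl1, a helix-loop-helix protein found in such complexes, read 5.27, 4.48 and 3.86 against 2.85, 2.84 and 3.03 (1.63, adjusted p = 0.0435). For both, the lowest stem cell value lay above the highest of the other group. Gfi1, a repressor that opposes PU.1 in granulocyte progenitors, was lower on every stem cell array: 2.91, 3.38 and 2.64 against 4.10, 4.04 and 4.01 (−1.08, adjusted p = 0.0462). Quantile normalization ended the calls of Lmo2 (adjusted p = 0.0513) and Lyl1 (0.0539). All 3 calls ended without an intensity trend (limma adjusted p = 0.0586 for Lmo2, 0.0609 for Lyl1 and 0.0565 for Gfi1). Leaving out any 1 total testicular array also ended all 3 calls (adjusted p from 0.135 to 0.217). Without stem cell array 1 Gfi1 missed the threshold (−1.04, adjusted p = 0.0627).

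The other regulators described here did not pass. Gata1, the erythroid factor that antagonises PU.1 and is also made by Sertoli cells, differed by 0.14 (95% interval −0.31 to 0.60), and Gata2 by −0.46 (adjusted p = 0.302). Jun, a coactivator of PU.1, differed by 1.93 (adjusted p = 0.135; 0.97 by its dimmer probe set) and Egr1, a factor of macrophage differentiation, by 1.77 (adjusted p = 0.136). Both had overlapping groups: Jun read 9.01, 7.53 and 5.92 against 5.71, 6.14 and 4.80, and Egr1 8.35, 6.66 and 5.66 against 5.32, 5.73 and 4.30, with stem cell array 3 inside the total testicular range. Id2, an inhibitor of helix-loop-helix proteins, differed by 0.30 (adjusted p = 0.438) and Zeb2, a zinc finger repressor, by 0.58 (adjusted p = 0.288).

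Of 31 measured genes known as PU.1 targets, 12 rose and 0 fell, with a median difference of 1.61, beside 1.63% and 0.137% of all named genes. The 12 became 5 without total testicular array 1, 8 without total testicular array 2 or 3, and 18 without stem cell array 3. Csf1r, which encodes the CSF1 receptor and is a textbook PU.1 target, read 11.1, 9.59 and 9.22 for stem cells against 5.17, 5.76 and 4.73 (difference 4.76, limma adjusted p = 0.00488). Adgre1, a surface receptor of mature macrophages, rose by 2.72 (adjusted p = 0.0182), a call lost without total testicular array 1, 2 or 3 (adjusted p = 0.0998, 0.0927 and 0.109). Lyz2 (lysozyme, 4.69), Tyrobp (a signalling adaptor, 4.55) and Ctss (a lysosomal protease, 4.36) also rose, whereas Itgam, an integrin chain of myeloid cells, differed by 0.32 near background (adjusted p = 0.472). The target and macrophage lists share 14 genes and were drawn up with results of these arrays known, so their counts are a description.

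Markers of the cells that could carry these factors gave the following values. Beside their counts, 1.63% of all 12393 named genes rose and 0.137% fell by limma. At an unadjusted p under 0.05 the shares were 11.8% higher and 13.1% lower, and for separate groups 13.8% and 19.2%. The mean log2 level of the 32 macrophage markers ranged from 3.58 to 3.96 on the total testicular arrays and from 6.22 to 7.83 on the stem cell arrays, with 4 of the 32 under background in the total testicular mean. The largest rises among them besides Csf1r and Lyz2 were F13a1 (a transglutaminase chain, 4.83) and Cbr2 (a carbonyl reductase, 4.75). That of the 8 Leydig cell genes ranged from 5.49 to 6.23 and from 6.45 to 8.11; 0 passed by limma (8 higher at an unadjusted p under 0.05, 0 by the unmoderated model), with a median difference of 1.55. None of 14 neutrophil and granule genes passed (1 higher and 0 lower at an unadjusted p under 0.05 by limma, 0 by the unmoderated model), and their median difference was 0.08. Of 13 lymphocyte genes 1 rose, the immunoglobulin heavy chain Ighm (2.05, adjusted p = 0.0415, with −0.36 to 2.41 over its 11 probe sets), with a list median of 0.05. The Ighm call ended with quantile normalization (adjusted p = 0.0539), without an intensity trend (0.0611) and without total testicular array 1, 2 or 3 (0.203, 0.114 and 0.209). Of the 14 neutrophil genes 10, and of the 13 lymphocyte genes 7, had a total testicular mean under background. Of 15 Sertoli cell genes 1 rose and 0 fell by limma, while 7 were higher and 0 lower at an unadjusted p under 0.05, 6 had separate groups with stem cells higher, and the median difference was 0.32. The gene that rose was Clu, a secreted chaperone (2.02, adjusted p = 0.0234), whose call ended without an intensity trend (adjusted p = 0.0535) and without total testicular array 1, 2 or 3 (0.132, 0.0958 and 0.135). Of 8 mast cell, 5 erythroid, 19 meiotic and haploid germ cell, and 12 peritubular and endothelial genes, 0 passed by limma or the unmoderated model (1, 0, 1 and 1 higher and 0, 0, 1 and 0 lower at an unadjusted p under 0.05). Total testicular means lay less than 2 log2 units above background or below it for 7 of the 8 mast cell genes. The same held for all 5 erythroid and all 12 peritubular and endothelial genes, so a change there could be missed. The mean log2 level of the 19 meiotic and haploid genes ranged from 9.64 to 9.74 on total testicular arrays and from 9.36 to 9.69 on stem cell arrays. The part of macrophage, Leydig or Sertoli cell RNA in the levels of Spi1 and its partners was not tested.

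**Figure D4:**
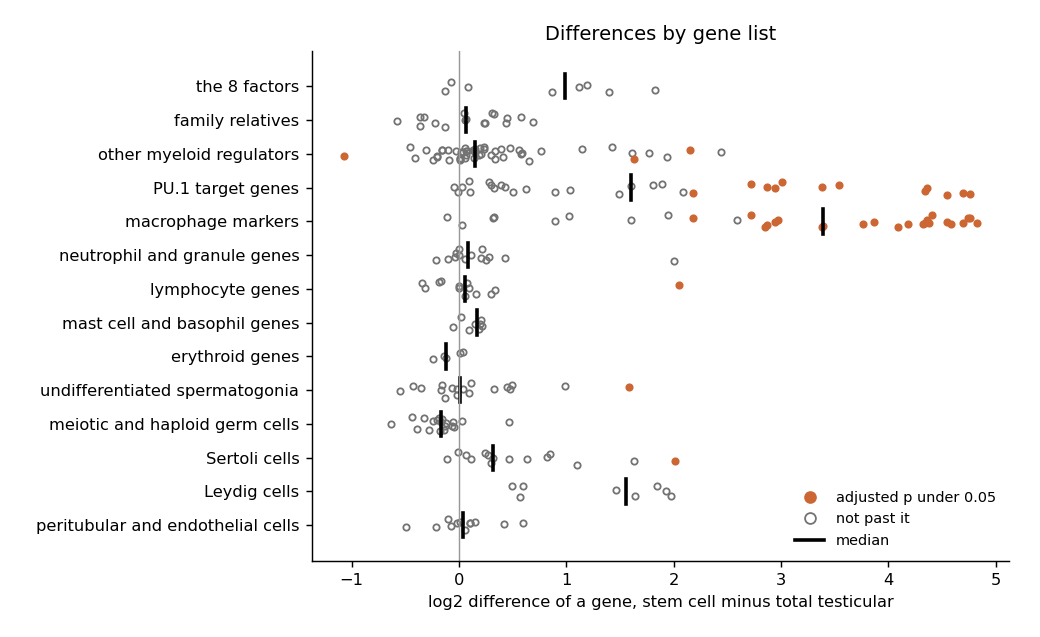
Log2 difference (x axis, stem cell minus total testicular) of each gene of 14 lists (rows), 1 point per gene, filled where the adjusted p was under 0.05 by limma; bars are list medians. The 8 factors have a median of 0.99 by gene and 0 filled points, the macrophage markers a median of 3.39 with 23 filled points, and the family relatives a median of 0.06.

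Genes whose values lay nearest to those of Spi1 over the 6 arrays are listed as a description, which gives no test. Values were not scaled for size, so a gene with a much larger difference could not come near. With each probe set set to its total testicular mean, the smallest root mean square distances from Spi1 over the 6 arrays were those of Dcxr (0.090 log2 units), a sugar reductase, and Btg2 (0.096), an antiproliferative gene. Next came Tspo (0.109), a mitochondrial cholesterol transport protein, Mdh1 (0.110), a malate dehydrogenase, Scd2 (0.115), a fatty acid desaturase, and Serinc3 (0.117). Their differences ran from 1.27 for Mdh1 to 1.51 for Btg2, beside 1.40 for Spi1. For Mdh1 and Serinc3 other probe sets gave as little as 0.16 and 0.10. No other member of the 8 stood among these 6 genes, which would hold for most short lists when 6 are taken from 12393 named genes.

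**Figure D5:**
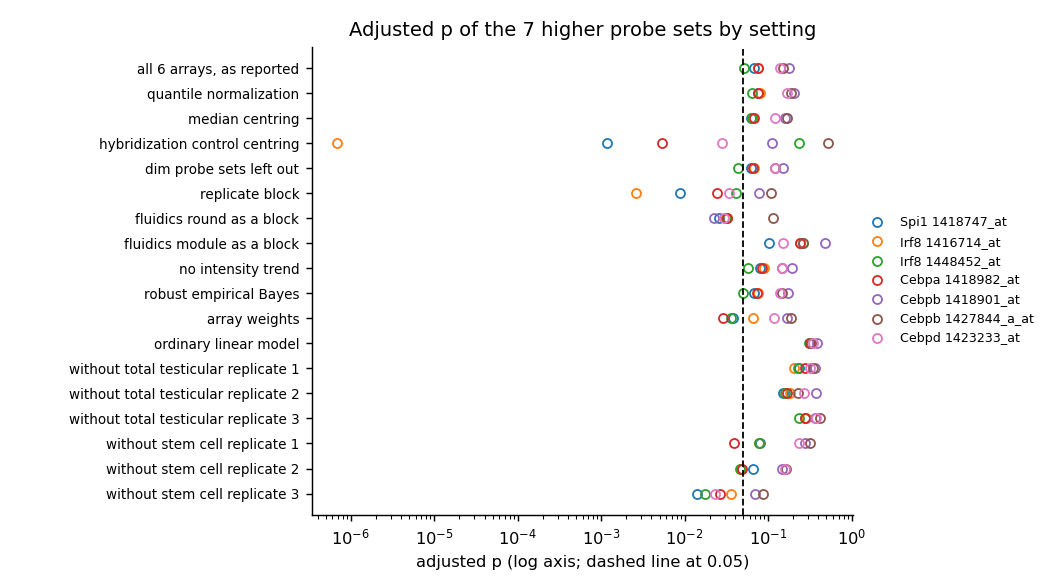
Adjusted p (x axis, log scale, dashed line at 0.05) of the 7 probe sets with separate groups under each setting (rows), 1 colour per probe set. With all 6 arrays as reported the 7 lie from 0.0513 to 0.176, and 6 lie left of the line with the fluidics round as a block and 5 with the replicate block. Over all 22626 probe sets, 316 rose as reported, 1200 with the round as a block and 1065 with the replicate block. In the row for the module as a block the difference rests on 1 array per group.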

How the data were processed

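Per the labels' protocols, total RNA of each of 6 samples gave biotinylated cRNA for 1 array. The deposited values are probe set summaries on a log2 scale, as their range (1.20 to 13.2) shows. MAS5 and RMA stand in the submitters' processing notes without a role, so the background correction and normalization the authors used are not given in the sources used here. Other deposited records hold scanner and fluidics settings, of which the module and the hybridization date and time were read (times less than 15 minutes apart are 1 round).

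Groups came from titles. The groups were compared by limma 3.58.1 in R 4.3.3 (intensity trend, two-sided, no filter, Benjamini-Hochberg over 22626 probe sets, 64 controls left out, threshold 0.05). Intervals are limma's 95% intervals. Of these probe sets, 20380 had 1 symbol, 691 several and 1555 none. A list gene stands for its probe set of highest mean. The number of arrays limits precision. The procedure was tested on simulated data.

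Members and lists were chosen with earlier results of these data known. Named genes are the 8 factors, list genes past the threshold (up to 6, 4 or 2 by list), the 6 profiles nearest to Spi1, and 13 fixed names.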

Additional observations from a re-analysis of the deposited data

How the results depend on the processing

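With 17 alternatives, the 7 probe sets with separate groups kept a positive difference in each: Spi1 from 1.03 to 1.72, Irf8 from 1.28 to 2.17 and from 0.56 to 0.83, Cebpa from 0.82 to 1.45, Cebpb from 0.41 to 1.28 and from 0.34 to 0.76, and Cebpd (1423233_at) from 0.66 to 1.58. Of 270 values for single probe sets under an alternative, 28 newly passed the threshold and 17 had the other sign, the latter all from Irf5, Runx1 and Maf. Of the 16 probe sets, 0 passed with all arrays as reported; 1 passed with dim probe sets left out (14 of the 16 entered that fit), 3 with array weights, 4 with hybridization control centring, 6 with the fluidics round as a block and 0 to 5 with 1 array left out. With the replicate block 5 passed, 1065 probe sets rose and 196 fell. Deviations of same-numbered arrays from their group means correlated at −0.01, 0.01 and 0.30, and those of differently numbered arrays at −0.35 to 0.30. With 3 arrays per group these values cannot tell whether same-numbered samples came from 1 preparation, and the labels used here do not say.

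Over all probe sets, 316 rose as reported, 844 with hybridization control centring, 853 with array weights, 1200 with the round as a block, 119 without an intensity trend and 36 to 1365 with 1 array left out (36, 64 and 49 without total testicular array 1, 2 or 3). The 34 that fell became 91 with median centring, 487 with hybridization control centring, 148 with array weights, 84 with the round as a block, 6 without a trend, 22 with a log2 difference of at least 1 and 0 to 943 with 1 array left out, 943 being without stem cell array 2 and 1365 without stem cell array 3. The unmoderated model called 0 probe sets in either direction. With the module as a block (1 residual degree of freedom) the difference rests on stem cell array 2 and total testicular array 3 alone, so its calls are not given. The 12 PU.1 target genes that rose became 19 with the replicate block and 5 to 18 with 1 array left out (5 without total testicular array 1, 8 without array 2 or 3 of that group), and the 23 macrophage markers 14 to 28 (14 without total testicular array 1). Of the other regulators, 2 rose as reported, 9 with the round as a block, 7 with hybridization control centring or the replicate block, 0 with quantile normalization or without a trend and 0 to 10 with 1 array left out (0 without any 1 total testicular array, 10 without stem cell array 3); the 1 that fell became 0 without a trend and 0 to 1 with 1 array left out. The cause of these shifts was not tested. Median and hybridization control centring moved the median difference of all probe sets from −0.03 to −0.15 and −0.20.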
